A study of Mus musculus with 7 samples.

Results

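The genes described here encode the machinery that removes the 5′ cap of mRNAs and degrades the uncapped body, namely Dcp1a, Dcp1b, Dcp2, Edc3, Edc4, Xrn1, Xrn2, Patl1 and Patl2. They were picked by name, as the entries whose symbol in the first column of the deposited tables is 1 of these 9, out of 25912 entries in all. Every one of the 9 names was found once in each table. In this pathway the Dcp2 enzyme cuts the cap and Dcp1 proteins switch the enzyme on. Edc3, Edc4 and the Pat1 protein Patl1 bring the enzyme and its activators together on mRNAs whose poly(A) tail has been shortened. Exonucleases of the Xrn family then degrade the RNA from 5′ to 3′. Fully grown oocytes do not transcribe, so the maternal mRNAs that they store can only be kept, translated or removed, and a large removal takes place during meiotic maturation. The mRNAs of Dcp1a and Dcp2 are themselves known as dormant maternal messages that are recruited for translation at that time, and Patl2 is a Pat1 family member made mainly in oocytes whose mutation is a known cause of oocyte maturation arrest in women. Whether Patl2 takes part in decapping was not tested here.

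The libraries came from oocytes of C57BL/6 females, 4 weeks old and primed with pregnant mare serum gonadotropin, and each library pooled 10 oocytes from the ovary. There were 2 libraries of germinal vesicle (GV) oocytes, for which the labels list no treatment although the study's methods describe DMSO also for GV controls, 3 libraries of metaphase II (MII) oocytes kept in the solvent DMSO, and 2 libraries of MII oocytes cultured with BYBX, a small molecule that binds and stabilizes RNA G-quadruplexes (rG4s), stacked structures of G-rich RNA. The labels give the genotype only as control or treated and no BYBX dose, and the sources used here do not say whether BYBX-treated oocytes were chosen by a polar body or which libraries shared mice, so p-values measure only the spread between these libraries. The paper reports that fewer oocytes released a first polar body as BYBX rose, and that the small proportion reaching MII had abnormal spindles. Meiotic stage and BYBX treatment therefore cannot be told apart in these libraries, which are called MII as labelled. Polyadenylated RNA was measured by Smart-seq2 and the values are FPKM (fragments per length of transcript and per sequenced fragments) that the authors had scaled to an RNA spike-in, so a level here follows the amount of RNA per 10 oocytes. Oligo-dT primed the cDNA, and shortening of the poly(A) tail can therefore lower a value while the body of the mRNA is intact. Lengthening of the tail, which the paper describes for many maternal mRNAs during maturation, can likewise hold or raise a value. The part of tail length in the levels below was not tested.

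The summed FPKM of all entries was 402113 to 489569 in GV, 109732 to 127254 in MII with DMSO and 201482 to 246710 in MII with BYBX, so most transcripts moved together and each gene has to be read against that movement. All 9 oocyte markers were present in every library, and their sum was 9824 to 12298 FPKM in GV, 2492 to 3209 FPKM in MII with DMSO and 5468 to 6265 FPKM in MII with BYBX. They did not move alike, since Oosp1 had means of 1343, 1379 and 1435 FPKM and was not called in any comparison, while Zp3 had means of 2948, 79.5 and 1043 FPKM and Figla of 35.5, 0.0798 and 10.2 FPKM. Markers of granulosa and cumulus cells, the follicle cells around the oocyte, summed to 5.98 to 12.2 FPKM in GV, 2.07 to 2.28 FPKM in MII with DMSO and 2.57 to 2.82 FPKM in MII with BYBX, with 1 of 12 markers, Ptx3, at 0 throughout, while markers of leukocytes stayed at 1.73 FPKM or below (Ptprc and Adgre1 at 0 throughout) and those of erythrocytes at 1.13 FPKM or below. The granulosa and leukocyte sums were highest in GV, as were most of the genes below, and their part in the results was not tested. Fewer intact oocytes in a library and less RNA per oocyte cannot be told apart from the level of a single gene in such pools.

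The following stretches of these mRNAs bear on the design, a G-rich stretch that could fold into an rG4, since BYBX binds rG4s, and the cytoplasmic polyadenylation element, which recruits stored mRNAs for translation in maturing oocytes. In the GENCODE vM21 transcripts on GRCm38, the assembly called mm10, a stretch of 4 runs of 3 or more G, the runs being 1 to 7 bases apart, was searched on the transcript strand and found once each in Dcp1b, Edc3 and Dcp2 and not in the transcripts used for the other 6 genes. Such a stretch lies in 18.7% of the 8694 tested transcripts that could be matched. The stretch of Dcp1b lies in its 5′ untranslated region at chr6:119175271-119175289 on the plus strand and that of Edc3 in its 3′ untranslated region at chr9:57751879-57751904 on the plus strand. They are shown with the G runs in capitals:
Dcp1b: GGGcaggaGGGtGGGtGGG
Edc3: GGGtctaGGGttaggtGGGaagtGGG
The stretch of Dcp2 also lies in its 3′ untranslated region. None was found in Patl2 or Edc4, the genes that were called higher with BYBX below, which says only that these letters are not in the transcripts searched.

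The element TTTTAT or TTTTAAT, searched on the transcript strand in the last 100 bases of the 3′ untranslated region, was found in Dcp1a (2 copies) and in Patl1 (1 copy) and in none of the other 7 genes. It is present in that window in 20.2% of the matched transcripts. The copy nearest the 3′ end of Dcp1a lies at chr14:30527009-30527038 and the copy of Patl1 at chr19:11944993-11945022, both on the plus strand, and each is shown in 30 bases with the element in capitals:
Dcp1a: gcaaatatatttTTTTAATaaaatttcaaa
Patl1: ttctgcatttgtTTTTAATgttttccatta
In Dcp1a the element runs into the hexamer AATAAA, the signal for cleavage and polyadenylation, and a TTTTAT copy lies further upstream. With 9 genes these matches are a description of the transcripts and no relation to the levels was tested.

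Over all libraries the genes spanned more than 2 orders of magnitude in FPKM, a scale that is per length of transcript. The effect of oligo-dT priming on transcripts of different length was not tested, so the order of genes is a description of their FPKM. In GV oocytes the order from the top was Dcp1a, Patl2, Edc4, Xrn2, Dcp2, Patl1, Xrn1, Edc3 and Dcp1b. The ranges of Dcp1a and Patl2, of Patl2 and Edc4, and of Xrn1 and Edc3 overlapped, whereas the other neighbours in that order did not. In MII oocytes with DMSO the upper places were held by Dcp1a, Edc4 and Xrn2 with no overlap, and then came Patl1 and Dcp2, which did not overlap each other while Patl2 overlapped both. In MII oocytes with BYBX Patl2 stood again above Xrn2, without overlap and below Edc4.

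**Figure D1:**
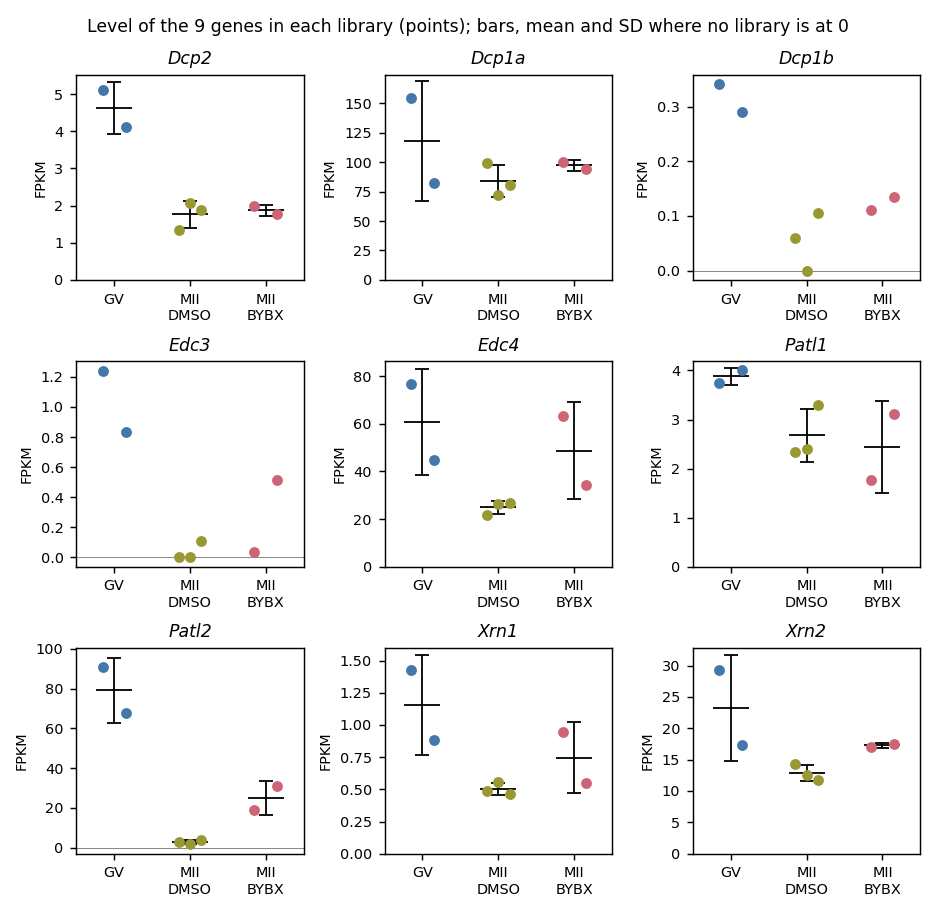
FPKM of each of the 9 genes on the deposited spike-in scale (vertical axes, a separate linear scale per gene), with 1 point per library for GV, MII with DMSO and MII with BYBX, and bars for the mean and SD where no library is at 0. Patl2 is the gene whose 3 groups lie furthest apart, at 67.7 to 90.8, 1.61 to 3.66 and 18.7 to 31.1 FPKM, while the groups of Dcp1a overlap.

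For the question of how these mRNAs change between the GV and MII stages, and whether BYBX alters that change, all 7 libraries entered 1 limma model on log2(FPKM + 1). Of the 9 genes, 6 reached the level needed for the test, 1 FPKM as the mean over the 3 groups, and Dcp1b, Edc3 and Xrn1 did not. Between MII with DMSO and GV, 4 of the 6 (Dcp2, Edc4, Patl2 and Xrn2) were lower at an adjusted p under 0.05 and none was higher. Of the 9202 tested entries 88.3% were lower and 0.272% higher, so a fall is what nearly any transcript showed. The median log2 fold change was -0.90 over the 6 genes and -1.83 over all tested entries. Between BYBX and DMSO at MII, 2 of the 6 (Edc4 and Patl2) were higher, where 65.2% of all tested entries were higher and 0.0326% lower, and the median log2 fold change was 0.31 over the 6 genes and 0.84 over all entries. Between MII with BYBX and GV, 2 of the 6 (Dcp2 and Patl2) were lower, where 69.2% of all tested entries were lower and 0.315% higher. The median log2 fold change there was -0.45 over the 6 genes and -0.99 over all entries. Each pair of these comparisons shares the libraries of 1 group and they are not independent of each other.

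These calls rest on the spike-in scale, on which almost every transcript moved, and against the rest of the library the genes stood differently. With libraries rescaled to equal totals, Dcp1a, Edc4, Patl1 and Xrn2 were called higher in MII with DMSO than GV oocytes (4 of 6, with 23.3% of all tested entries higher) and Patl2 was called lower (1 of 6, with 49.5% lower). Between BYBX and DMSO at equal totals, Dcp1a, Dcp2 and Patl1 were called lower (3 of 6, with 8.22% of entries lower, Dcp1a only just, at a limma adjusted p = 0.0499) and Patl2 higher (1 of 6, with 39.9% higher). None was called between MII with BYBX and GV, where 13.3% of entries were lower and 5.3% higher. With median centring the counts were 5 higher and 1 lower for MII with DMSO against GV (48.8% and 26.7% of entries), 1 higher and 4 lower for BYBX against DMSO (18.4% and 43.9%), and 1 higher and 0 lower for MII with BYBX against GV (15.2% and 13.6%).

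**Figure D2:**
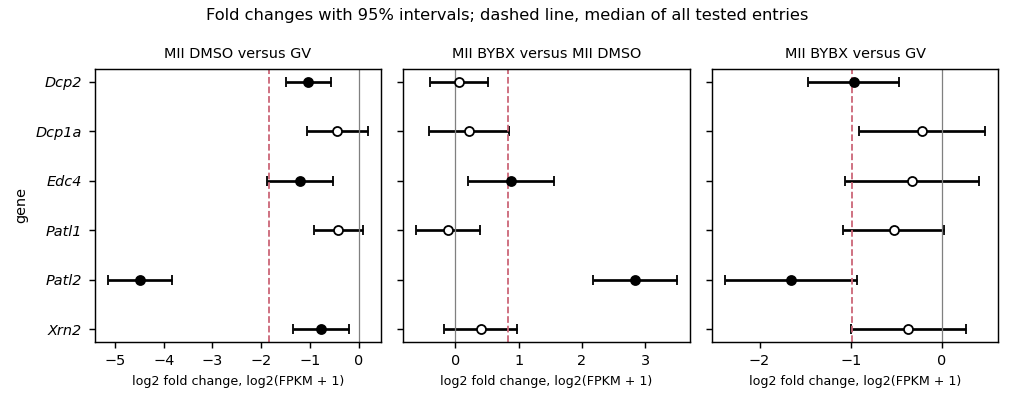
Log2 fold change on the log2(FPKM + 1) scale (horizontal axes) of the 6 tested genes in the 3 comparisons, with 95% intervals from limma, filled points for an adjusted p under 0.05 and a dashed line at the median of all 9202 tested entries. Patl2 lies beyond the median in every panel, at -4.49, 2.83 and -1.66, and Dcp1a, Patl1 and Xrn2 lie between the median and 0, except Patl1 at -0.11 in the middle panel.

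Dcp2, the decapping enzyme, was a low transcript that fell at MII on the deposited scale, and its values with BYBX lay within those of the DMSO group. Its level was 5.12 and 4.13 FPKM in GV, 1.35, 2.06 and 1.88 FPKM in MII with DMSO, and 1.98 and 1.76 FPKM in MII with BYBX. Both GV libraries stood above all MII libraries, and the BYBX libraries lay inside the range of the DMSO libraries. The log2 fold change of MII with DMSO against GV was -1.03 (SE 0.21, limma adjusted p = 4.18e-04), and it turned to 0.36 when the libraries were rescaled to equal totals and to 1.27 when each was centred on its median. Against GV, MII with BYBX differed by -0.97 (SE 0.23, limma adjusted p = 0.00242) on the log2 scale. BYBX against DMSO at MII gave a log2 fold change of 0.06 with a 95% interval of -0.39 to 0.52 (limma adjusted p = 0.792), an interval that lies below the 0.84 of the median entry.

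Dcp1a, the cofactor that activates Dcp2, was the most abundant of the 9 mRNAs in every library. Its level was 154 and 82.3 FPKM in GV, 98.9, 72.2 and 80.9 FPKM in MII with DMSO, and 100 and 94.0 FPKM in MII with BYBX. The groups overlapped, and the first GV library stood apart above the rest. The log2 fold change was -0.43 (95% interval -1.06 to 0.20, limma adjusted p = 0.175) for MII with DMSO against GV on the deposited scale and 1.44 at equal totals, and on the deposited scale it reached the threshold only without the second GV library, at -0.88 (limma adjusted p = 0.0177). For BYBX against DMSO the log2 fold change was 0.22 (95% interval -0.41 to 0.85, limma adjusted p = 0.515), and for MII with BYBX against GV it was -0.21 (limma adjusted p = 0.562).

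With the totals of the MII libraries at a fraction of those in GV, a level that held meant a higher place in the library. Counted from the top, Dcp1a had ranks 564 and 962 in the GV libraries, between 147 and 256 in MII with DMSO, and 383 and 321 in MII with BYBX. Its 3 groups do not overlap on this scale, which no rescaling of a library can change. Xrn2 had the same order without overlap, with ranks 2936 and 3534 in GV, 1215 to 1541 in MII with DMSO, and 2379 and 2020 in MII with BYBX. Edc4, Patl1, Dcp2 and Xrn1 also ranked higher in MII with DMSO than in GV. Patl2 ranked lower there, and Dcp1b and Edc3 overlapped. The share of all entries with such a rise was not computed, so these ranks do not set the genes apart from other entries. On another relative scale, median centring, 48.8% of all tested entries were called higher in MII with DMSO than in GV. Dcp1a made up 42.5% and 37.0% of the summed FPKM of the 9 genes in GV, 61.4% to 69.7% in MII with DMSO, and 49.2% and 51.3% in MII with BYBX. These shares also do not depend on the scaling, and they were ordered GV, BYBX, DMSO without overlap. The sum includes Patl2, so the share of Dcp1a also moves when Patl2 does. Patl2 made up 25.0% and 30.4% of the sum in GV, 1.37% to 2.84% in MII with DMSO, and 9.18% and 17.0% in MII with BYBX.

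**Figure D3:**
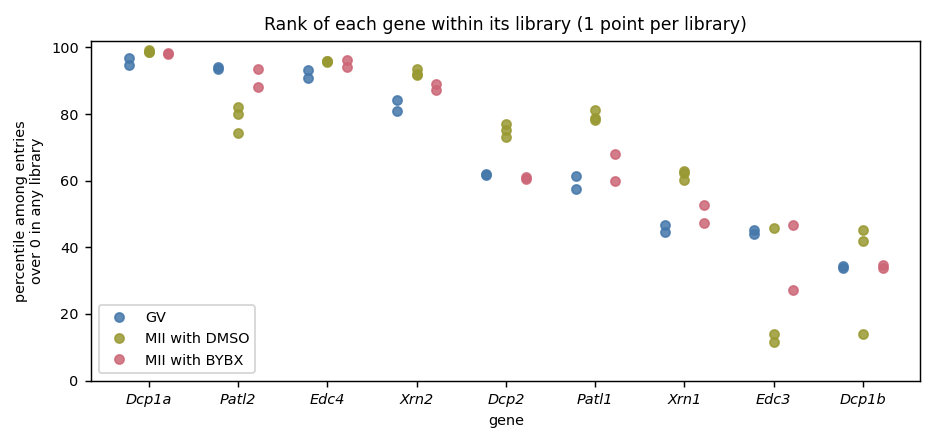
Percentile of each of the 9 genes within its own library (vertical axis, 100 is the highest) among the 18497 entries over 0 in any library, with 1 point per library coloured by group. Dcp1a moves from 94.8 to 97.0 in GV to 98.6 to 99.2 in MII with DMSO, and Patl2 drops from 93.6 to 94.2 to 74.3 to 82.1. The ranks of Dcp1b and Edc3 spread widely in MII with DMSO, where some of their values are 0. Those of Edc3 also spread in MII with BYBX, at 27.3 and 46.7, where neither value is 0.

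The mRNA of Dcp1b, the second Dcp1 protein of mammals, was nearly absent. It was listed at 0.342 and 0.290 FPKM in GV, at 0.0600, 0 and 0.105 FPKM in MII with DMSO, and at 0.111 and 0.135 FPKM in MII with BYBX. Its 3 groups did not overlap, and with a value at 0 no fold is given. Dcp1a thus exceeded Dcp1b by more than 2 orders of magnitude in each library where Dcp1b was over 0.

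The enhancers of decapping differed in level in the same way, with Edc4 abundant and Edc3 scarce. Edc4, the large scaffold that joins Dcp1 and Dcp2, was at 76.6 and 45.0 FPKM in GV, 21.9, 26.2 and 26.8 FPKM in MII with DMSO, and 63.1 and 34.3 FPKM in MII with BYBX. The DMSO libraries were the lowest and close together, and the 2 BYBX libraries lay on both sides of the lower GV library. Between GV and MII with DMSO the log2 fold change was -1.21 (SE 0.31, limma adjusted p = 0.00252), -0.83 (limma adjusted p = 0.0695) without the first GV library, and 0.63 at equal totals. With BYBX against DMSO the log2 fold change was 0.88 (SE 0.31, limma adjusted p = 0.0244), close to the 0.84 of the median entry. That call rested on the first BYBX library, as without it the log2 fold change was 0.45 (limma adjusted p = 0.315), and it was also lost with no filter on level (limma adjusted p = 0.101) and at equal totals, where the log2 fold change was 0.01, and it was -0.40 with median centring. MII with BYBX differed from GV by -0.33 (limma adjusted p = 0.405) on the log2 scale.

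Edc3, which binds Dcp2 and promotes assembly of decapping complexes, was listed at 1.24 and 0.836 FPKM in GV, at 0, 0 and 0.109 FPKM in MII with DMSO, and at 0.0391 and 0.512 FPKM in MII with BYBX. The GV libraries were above all others, and the BYBX libraries differed so much from each other that the first lay within the DMSO range. The gene overlaps Clk3 on the opposite strand within exons, and the sources do not state that strand was used in computing FPKM, so reads of both genes could not be told apart there.

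Patl2 and Patl1, the Pat1 family pair, took different courses. Patl2 was at 90.8 and 67.7 FPKM in GV, at 2.62, 1.61 and 3.66 FPKM in MII with DMSO, and at 18.7 and 31.1 FPKM in MII with BYBX. All 3 groups were separate, and the mean of GV was 30.1 times that of MII with DMSO, while the mean with BYBX was 9.47 times that with DMSO and the mean of GV was 3.18 times that with BYBX. MII with DMSO differed from GV by a log2 fold change of -4.49 (SE 0.31, limma adjusted p = 8.9e-09), and it remained lower at equal totals, at -2.85, and with median centring, at -2.19. It was the single gene of the 6 that was called lower at MII under all 3 scalings. The log2 fold change of BYBX against DMSO was 2.83 (SE 0.31, limma adjusted p = 3.39e-06), with 2.17 at equal totals and 1.55 with median centring, both past the threshold. Leaving out each library in turn kept this difference between 2.48 and 3.18 on the log2 scale. Against GV, MII with BYBX differed by -1.66 (SE 0.34, limma adjusted p = 7.82e-04) on the log2 scale, and by -0.68 (limma adjusted p = 0.2) at equal totals. Of the FPKM lost between the means of GV and MII with DMSO, 21.0% and 37.2% were still present in the 2 BYBX libraries, with a mean of 29.1%. The same share had a median of 28.8% over all entries that were lower in MII with DMSO.

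Patl1, the widely expressed Pat1 protein, was at 3.75 and 4.00 FPKM in GV, at 2.34, 2.39 and 3.29 FPKM in MII with DMSO, and at 1.78 and 3.11 FPKM in MII with BYBX. GV lay above both MII groups, which overlapped. None of the 3 differences passed the threshold, with log2 fold changes of -0.42 (limma adjusted p = 0.107) for MII with DMSO against GV, -0.11 (95% interval -0.62 to 0.39, limma adjusted p = 0.672) for BYBX against DMSO, and -0.53 (limma adjusted p = 0.0799) for MII with BYBX against GV. Without the second BYBX library the last of these was -0.81 (limma adjusted p = 0.0239). At equal totals, Patl1 rose from GV to MII with DMSO, by 1.02 (limma adjusted p = 0.00559), and lower with BYBX than with DMSO, at -0.82 (limma adjusted p = 0.0272).

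Within a library the ratio of Patl2 to Patl1 needs no scaling. The ratio of their FPKM was 24.2 and 16.9 in GV, 1.12, 0.674 and 1.11 in MII with DMSO, and 10.5 and 10.0 in MII with BYBX. Patl2 thus went from far above Patl1 to about its level, and with BYBX it stood about 10 times above it. The groups did not overlap. On the log2 scale of FPKM + 1 the mean ratio was 4.03 ± 0.35 (SD, n = 2) in GV, -0.05 ± 0.29 (SD, n = 3) in MII with DMSO and 2.90 ± 0.10 (SD, n = 2) in MII with BYBX. A two-sided exact permutation test gave p = 0.1 for MII with DMSO against GV and for BYBX against DMSO, and p = 0.33 for BYBX against GV, which are the smallest values that groups of this size allow. Adjusted over the 15 tests of 5 pairs in 3 comparisons by the Benjamini-Hochberg method these exact p-values were 0.714.

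The FPKM ratio of Dcp1a to Dcp2 was 30.1 and 19.9 in GV, 73.5, 35.0 and 43.1 in MII with DMSO, and 50.6 and 53.3 in MII with BYBX, so the mRNA of the cofactor stood above that of the enzyme throughout. On FPKM the GV libraries were below all MII libraries, and on the log2 scale of FPKM + 1 the ranges of GV and DMSO overlapped (exact permutation p = 0.3). The ratio of Xrn2 to Xrn1 was 20.5 and 19.6 in GV, 29.3, 22.4 and 25.5 in MII with DMSO, and 18.0 and 31.9 in MII with BYBX. Its log2 values overlapped in all 3 comparisons, with exact permutation p-values between 0.3 and 0.667.

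**Figure D4:**
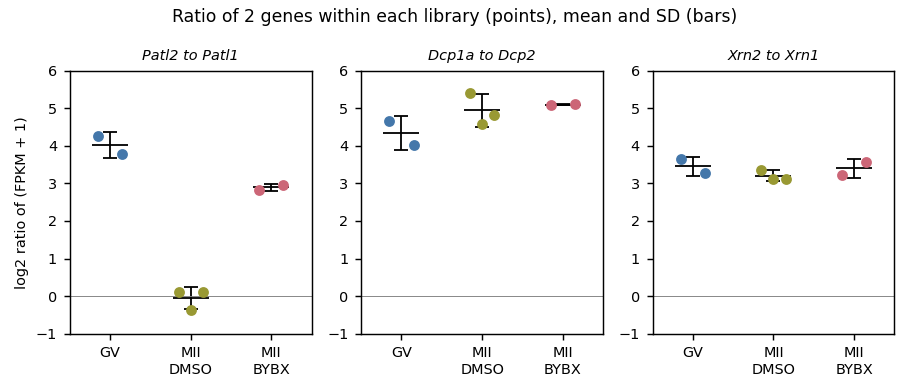
Log2 ratio of FPKM + 1 of 2 genes in the same library (vertical axis), with 1 point per library and bars for the mean and SD, for Patl2 to Patl1, Dcp1a to Dcp2 and Xrn2 to Xrn1. The ratio of Patl2 to Patl1 lies near 4 in GV, near 0 in MII with DMSO and near 3 in MII with BYBX, whereas the groups of the other pairs overlap, except GV and BYBX for Dcp1a to Dcp2.

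The exonucleases also consisted of an abundant and a scarce member. Xrn2, the mainly nuclear 5′ to 3′ exonuclease that also ends transcription by RNA polymerase, was at 29.3 and 17.3 FPKM in GV, at 14.3, 12.5 and 11.8 FPKM in MII with DMSO, and at 17.0 and 17.5 FPKM in MII with BYBX. GV and BYBX lay above the DMSO libraries, and the BYBX libraries were close to the lower GV library. The log2 fold change of MII with DMSO against GV was -0.77 (SE 0.27, limma adjusted p = 0.0153), it was -0.40 (limma adjusted p = 0.164) without the first GV library, and it turned to 1.02 at equal totals. BYBX against DMSO gave a log2 fold change of 0.40 (95% interval -0.17 to 0.97, limma adjusted p = 0.197), and MII with BYBX against GV gave -0.37 (limma adjusted p = 0.273), or -0.73 (limma adjusted p = 0.0381) without the second GV library.

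Xrn1, the cytoplasmic exonuclease that degrades decapped mRNA, was at 1.43 and 0.882 FPKM in GV, at 0.489, 0.558 and 0.464 FPKM in MII with DMSO, and at 0.943 and 0.549 FPKM in MII with BYBX. GV was above the DMSO libraries, and the BYBX libraries overlapped both other groups. It was below the level needed for the test, and it overlaps the antisense genes C78334 and Gm16794 in exons. With all entries tested and no filter on level, Dcp1b, Edc3 and Xrn1 had lower values at MII with DMSO than at GV, with limma adjusted p-values of 0.00144, 0.00327 and 0.0322, and none of the 3 was called between BYBX and DMSO, with limma adjusted p-values of 0.216, 0.298 and 0.401. Between MII with BYBX and GV, Dcp1b and Edc3 were called lower (limma adjusted p = 0.0152 and 0.0284) and Xrn1 was not (0.218). Over all 9 genes that fit called 7 lower for MII with DMSO against GV, 1 higher for BYBX against DMSO and 4 lower for MII with BYBX against GV, beside 65%, 31.3% and 45.1% of the 18497 entries tested. In these low genes log2(FPKM + 1) understates the change. It does so also for Dcp2 and Patl1. Their log2 fold changes of MII with DMSO against GV were -1.36 and -0.53 with a pseudocount of 0.1, and -1.03 and -0.42 with 1.

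Counted over all 9 genes, the libraries of GV and MII with DMSO did not overlap for 8 genes (all but Dcp1a), beside 92.8% of the tested entries. BYBX and DMSO did not overlap for 4 genes (Dcp1b, Edc4, Patl2 and Xrn2), beside 79.3%, and BYBX and GV did not overlap for 5 genes (Dcp1b, Dcp2, Edc3, Patl1 and Patl2), beside 83.1%. Dcp1b, Edc3 and Xrn1 were below the level for the test, which all entries behind these shares reached, so the counts and shares cover unlike sets. Summed over the 9 genes, the level was 363 and 222 FPKM in GV, 142, 118 and 129 FPKM in MII with DMSO, and 204 and 183 FPKM in MII with BYBX.

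The 9 genes lie on 7 chromosomes. On GRCm38 the annotation places Patl2 at chr2:122120108-122186189 on the minus strand and Xrn2 on the same chromosome at chr2:147012996-147078000 on the plus strand. Dcp1a lies at chr14:30479535-30527063, Edc4 at chr8:105880881-105894908 and Patl1 at chr19:11912399-11945091, all on the plus strand. The longest 3′ untranslated regions belong to Dcp2, Xrn1, Edc3 and Dcp1a, with 7240, 4994, 4004 and 3757 bases. Those of Edc4, Patl2 and Xrn2 have 363, 366 and 452 bases.

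Partners of the pathway were read from a list of 23 genes, of which 21 reached the level for the test. Between MII with DMSO and GV 18 of 21 were lower and none was higher, their median log2 fold change being -1.97, and between BYBX and DMSO 16 of 21 were higher, with a median of 0.77. Between MII with BYBX and GV 12 of 21 were lower, with a median of -0.91. Over all tested entries the shares were 88.3% lower, 65.2% higher and 69.2% lower in these comparisons, and the medians of the partners lie near those of all entries, so neither sets the partners apart in this fit. With no filter on level 12 of 23 partners, instead of 16 of 21, were higher with BYBX than with DMSO. In that fit 31.3% of 18497 entries were higher, a set that also holds entries below that level. At equal totals the partner counts were 9 lower and 3 higher, 2 lower and 9 higher, and 1 lower and 2 higher, in the same order. Beside them, 49.5% of all tested entries were lower and 23.3% higher, then 8.22% and 39.9%, and then 13.3% and 5.3%. The ring of Lsm1 to Lsm7 binds the 3′ end of deadenylated mRNA together with the Pat1 protein Patl1. On the deposited scale 7 of its 7 genes were lower at MII with DMSO and 7 of 7 were higher with BYBX than with DMSO. With BYBX 4 of 7 were lower than in GV. These counts stand beside the same 88.3%, 65.2% and 69.2% of all tested entries. With no filter on level Lsm7 was not called higher with BYBX (limma adjusted p = 0.156).

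Lsm3, a ring subunit, was at 70.4 and 80.6 FPKM in GV, 2.15, 2.72 and 3.94 FPKM in MII with DMSO, and 24.2 and 23.6 FPKM in MII with BYBX. Its log2 fold changes were -4.30 for MII with DMSO against GV, 2.69 for BYBX against DMSO and -1.62 for MII with BYBX against GV. Pnrc1, an activator of decapping, changed by -4.29, 2.46 and -1.83 in the same order, and Dxo, a nuclease that removes faulty caps, by -3.68, 2.30 and -1.37. Lsm4 was higher with BYBX than with DMSO, at 2.68, and Lsm6 was lower in MII with BYBX than in GV, at -1.47. Lsm14a, Lsm14b and Upf1 were not called between MII with DMSO and GV, with log2 fold changes of -0.15, -0.57 and 0.36. Proteins that bind XRN2 (Cdkn2aip, Cdkn2aipnl and Nkrf) passed in 3 of 3 cases in each comparison, lower, higher and lower in the order above, which 88.3%, 65.2% and 69.2% of all tested entries also did. With no filter on level Cdkn2aip was not called between BYBX and DMSO (limma adjusted p = 0.113).

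**Figure D5:**
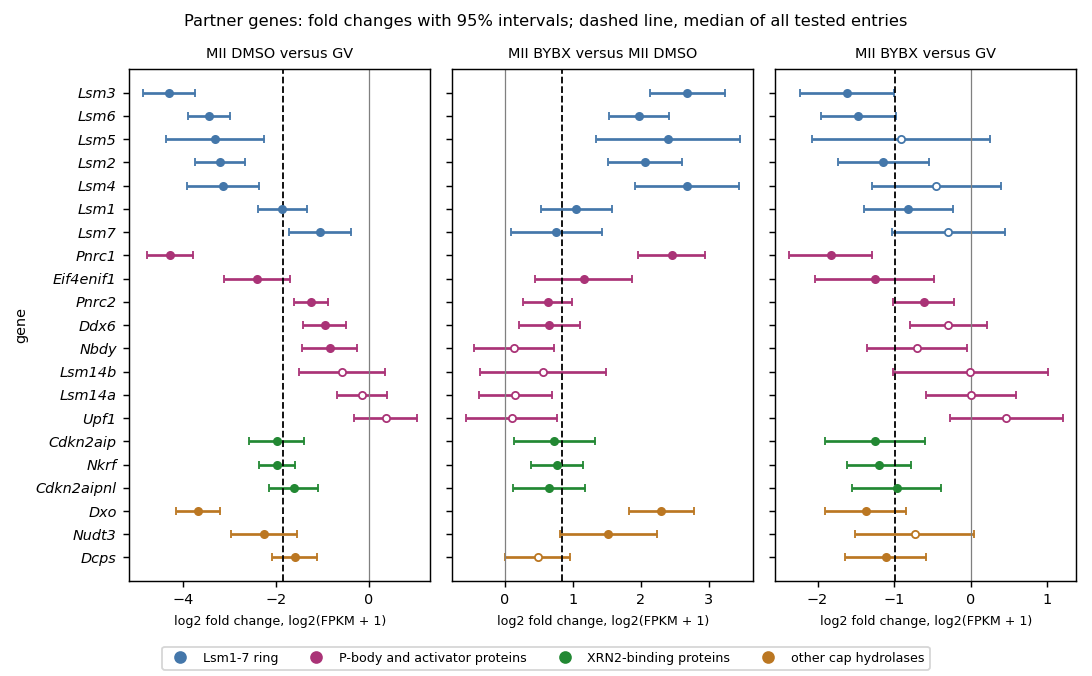
Log2 fold change on the log2(FPKM + 1) scale (horizontal axes) of the 21 tested partner genes in the 3 comparisons, coloured by role, with 95% intervals from limma, filled points for an adjusted p under 0.05 and a dashed line at the median of all tested entries. Lsm3 and Pnrc1 lie furthest to the left at -4.30 and -4.29 in the first panel, and Lsm14a, Lsm14b and Upf1 have open points there.

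The entries whose course over the 7 libraries lay nearest to each tested gene were found among 3790 entries of 10 FPKM or more as the mean over the groups, by the Euclidean distance between log2(FPKM + 1) values after subtracting each gene's own mean. Patl2 was nearest to Tmem222 (distance 0.39) and Ddx56 (0.43), Tmem222 having group means of 44.1, 1.31 and 14.6 FPKM in GV, MII with DMSO and MII with BYBX. Dcp2 was nearest to Cdca8 (0.23) and Rita1 (0.26), and Dcp1a to Zbed3 (0.22) and Itga9 (0.25). Edc4 was nearest to Cherp (0.23) and Slc12a9 (0.32), Patl1 to Fchsd2 (0.32) and Map2k4 (0.42), and Xrn2 to Glce (0.19) and Pex13 (0.20). Cdca8, which had 252, 119 and 131 FPKM, was also below its GV level in both MII groups. The log2(FPKM + 1) scale understates changes of the low genes Dcp2 and Patl1, and its effect on their nearest entries was not tested.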

How the data were processed

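Polyadenylated RNA of 7 libraries of 10 mouse oocytes each (2 GV, 3 MII with DMSO, 2 MII with BYBX, grouped by the sample labels) had been measured by Smart-seq2. The authors deposited 1 table of FPKM per library, scaled to the ERCC spike-in and to the GV samples of each batch, after trimming, alignment to mm10 and FPKM estimation on UCSC gene models. The submitters' processing notes name Trim Galore 0.6.7, HISAT2 2.2.1 and Cufflinks 2.2.1. The batches and scaling factors are not given in the sources used here, FPKM from Cufflinks keep no whole reads, and depth is therefore unknown.

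The 9 genes and the lists of partners and markers were chosen with earlier results of these data known. Of 25912 entries, 4 with a missing value were dropped. The remaining 25908 were taken to log2(FPKM + 1), and the 9202 with a mean of the 3 group means of at least 1 FPKM were fitted with limma 3.58.1 in R 4.3.3 (1 model of group means, 4 residual degrees of freedom, intensity trend, Benjamini-Hochberg adjustment over all tested entries, threshold 0.05). The fit was tested on simulated data in which a set of genes changed only in the BYBX group and the others did not. In the real libraries most entries moved, so that simulation does not cover their setting. Ratios of gene pairs were compared by two-sided exact permutation tests in scipy 1.17.1 under Python 3.11.15. Equal totals mean that each library was rescaled to 1 sum of FPKM, and median centring subtracted each library's median log2 level over the tested entries. All 9 genes were named, together with the partners with the 3 largest rises and falls among called partners in each comparison, any partner called against the direction of most, and the 2 nearest profiles of each tested gene. Lsm14a, Lsm14b, Upf1, Lsm1, Lsm2, Lsm5, Lsm7 and the proteins binding XRN2 fall outside that rule and were named after their values were seen. Motifs were searched in 1 coding transcript per gene of GENCODE vM21, and 8694 of 9154 tested names matched. The alternatives were a pseudocount of 0.1, a filter at 5 FPKM or none, the 2 rescalings, a fit of only the compared groups, a replicate block, no intensity trend and leaving out each library.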

Additional observations from a re-analysis of the deposited data

How the results depend on the processing

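Of the settings tried, the scaling of the libraries moved the results most. The median log2 fold change of all tested entries was -1.83, 0.84 and -0.99 for MII with DMSO against GV, BYBX against DMSO, and MII with BYBX against GV on the deposited scale, -0.56, 0.34 and -0.17 at equal totals, and 0.47, -0.44 and 0.04 with median centring. In this order of comparisons, the 6 tested genes gave 4, 0 and 2 lower and 0, 2 and 0 higher calls on the deposited scale. They gave 1, 3 and 0 lower and 4, 1 and 0 higher at equal totals, and 1, 4 and 0 lower and 5, 1 and 1 higher with median centring. Partners gave 9, 2 and 1 lower and 3, 9 and 2 higher at equal totals, and 5, 8 and 1 lower and 9, 6 and 3 higher with median centring. Of all tested entries 49.5%, 8.22% and 13.3% were lower and 23.3%, 39.9% and 5.3% higher at equal totals. With median centring 26.7%, 43.9% and 13.6% were lower and 48.8%, 18.4% and 15.2% higher. With no filter on level the 9 genes gave 7, 0 and 4 lower, since all 9 were then tested, and 1 higher with BYBX than with DMSO, where the cause of the lost call of Edc4 was not tested (65%, 45.1% and 31.3% of all entries in that fit were lower, lower and higher in these comparisons), and with a filter at 5 FPKM 1 was lower in MII with BYBX than in GV, since Dcp2 and Patl1 were then not tested.

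MII with DMSO against GV changed direction at equal totals and with median centring, respectively, for Dcp2 (0.36, 1.27), Dcp1a (1.44, 1.87), Edc4 (0.63, 1.10), Patl1 (1.02, 1.89), Xrn2 (1.02, 1.54), Lsm14a (1.71, 2.16) and Lsm14b (1.08, 1.73). BYBX against DMSO did so for Dcp2 (-0.57, -1.21), Dcp1a (-0.67, -1.06), Xrn2 (-0.45, -0.88), Lsm14a (-0.73, -1.13), Lsm14b (-0.23, -0.72) and Upf1 (-0.77, -1.18), and for Edc4 with median centring (-0.40). MII with BYBX against GV did so for Dcp1a (0.77, 0.81), Edc4 (0.64, 0.70), Patl1 (0.21, 0.50), Xrn2 (0.57, 0.66), Lsm4 (0.52, 0.57) and Lsm14b (0.85, 1.02), and for Dcp2 with median centring (0.060). Patl2 kept its direction in all 3 comparisons under every setting. With a pseudocount of 0.1 the differences in log2 ratio changed sign, in the order of comparisons, for Dcp1a to Dcp1b (1.05 and -0.36 in the first and second), Edc4 to Edc3 (1.90 and -0.29 in the first and second) and Xrn2 to Xrn1 (0.22, -0.026 and 0.19).

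Leaving out each library in turn gave 2 to 5 of the genes lower at MII with DMSO against GV, 1 to 2 higher with BYBX than with DMSO, and 2 to 3 lower with BYBX than in GV. The shares of all entries called in these refits, and with the filter at 5 FPKM, were not computed. These counts are therefore not set against the other entries. Values that changed sign when a library was left out ranged, for BYBX against DMSO, from -0.049 to 0.14 for Dcp2, -0.40 to 0.17 for Patl1, -0.26 to 1.38 for Lsm14b and -0.31 to 0.51 for Upf1, for MII with DMSO against GV from -0.88 to 0.017 for Dcp1a, and for MII with BYBX against GV from -0.66 to 0.24 for Dcp1a, -0.76 to 0.10 for Edc4, -0.12 to 0.13 for Lsm14a and -0.83 to 0.82 for Lsm14b. Differences in log2 ratio that did so ranged for Dcp1a to Dcp1b from -0.53 to 0.31 (MII with DMSO against GV) and -0.41 to 0.44 (MII with BYBX against GV), for Edc4 to Edc3 from -0.096 to 1.30 (BYBX against DMSO) and -0.33 to 1.07 (MII with BYBX against GV), for Xrn2 to Xrn1 from -0.25 to 0.12 (MII with BYBX against GV) and for Dcp1a to Dcp2 from -0.027 to 0.39 (BYBX against DMSO).

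With the replicate number as a block these counts were 3, 2 and 2, and Xrn2 was no longer called in the first comparison (adjusted p = 0.0571 in limma). Patl1 with BYBX against DMSO then had a log2 fold change of 0.0034 (limma adjusted p = 0.993). Same-numbered libraries correlated in their deviations at 0.49 and 0.28 for MII with DMSO and GV, -0.60 and -0.35 for BYBX and DMSO, and -0.33 for BYBX and GV, and since the labels give no shared litter, batch or day and each comparison has only 2 numbered pairs, the libraries were taken to share only a number. A crossed pairing of BYBX and GV, chosen after seeing the data, gave 2 genes lower. For the block and the crossed pairing the shares of all entries called were not computed either. With no counts in the files, depth sets no stated limit, and the precision is that of 2 or 3 libraries per group.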
